A study of Mus musculus with 8 samples.

Results

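The genes examined here are the ligands and receptors that guide growing axons: semaphorins, plexins, neuropilins, ephrins, Eph receptors, netrins, their receptors Dcc and Unc5, Slits and Robos. Members are all genes whose names match these families, a rule that uses no measured value although the families were picked with earlier results of these data known, and the array holds 69 such genes (35 ligands and 34 receptors) on 99 probes, of 34784 named genes and transcripts on 55681 probes. A gene counted as measured when a probe of it was well above background, by the scanner software's own mark, on at least 4 of the 8 arrays, which held for 62 genes and 88 probes. The samples are medium spiny neurons (MSNs), the inhibitory output neurons that make up most of the striatum. They came from male mice at 4 weeks of age and were sorted as cells positive for Venus fluorescence and negative for propidium iodide, a dye that enters dead cells. The mice were R6/2;Scn4b-Venus, compared with WT;Scn4b-Venus, with 4 one-colour Agilent arrays for each genotype. The R6/2 line, a model of Huntington's disease, expresses exon 1 of human huntingtin with an expanded CAG repeat and is not restricted to MSNs, and both genotypes carry the Scn4b-Venus reporter, which marks cells by the activity of the sodium channel gene Scn4b. The labels do not say whether each array holds cells of 1 mouse, so p-values measure the spread between arrays.

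Axon guidance molecules are mostly membrane or secreted proteins read in pairs. Semaphorins signal through plexins, with neuropilins as co-receptors for most of the secreted class 3 semaphorins. Ephrins are membrane-bound and signal through Eph receptor tyrosine kinases while also signalling back into the cell that carries them. Netrins act through Dcc (attraction) and Unc5 receptors (repulsion), and Slits through Robo receptors. In the mature striatum many of these proteins are found at synapses, and the pair Sema3e and Plxnd1 is known in mice for shaping the thalamic synapses of direct pathway MSNs.

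Each probe is an oligonucleotide of 60 bases read in the sense of the transcript. The first 30 bases of the probes behind the members with the smallest p-values are shown, with both probes of Plxnd1 and of Plxna2 because the 2 probes of each gene gave different answers. The positions are those of the array's annotation on mm9, for all 60 bases, and no annotation of that build was used here, so that the exon or untranslated region a probe lies in is not given.
Plxnd1, A_55_P2151822, chr6:115904829-115904888, minus strand: aggggaaggctgggactctctggaacattc
Plxnd1, A_52_P472319, chr6:115905315-115905374, minus strand: agggaatttctgcttcagccaccaagcagt
Plxnb2, A_55_P1967266, chr15:88985981-88986040, minus strand: gaccacccaccctttttgtaaatcgtgatt
Sema7a, A_52_P410765, chr9:57810607-57810666, plus strand: tcccttatctcttctcaatgcactttaata
Efnb3, A_52_P495565, chr11:69367911-69367970, minus strand: actggtctagctgatggcagttattagcac
Epha3, A_52_P276955, chr16:63545155-63545214, minus strand: acccagagaattatatgttcttttctacaa
Plxna2, A_66_P138999, chr14:108739666-108739725, plus strand: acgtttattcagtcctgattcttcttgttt
Plxna2, A_51_P229602, chr1:196642958-196643017, plus strand: catgtacctattgtaaatatgaaactccta

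Levels are log2 intensities relative to the 75th percentile of the array, so 0 is that percentile, and a level of 1 probe is not set against that of another. A gene with several measured probes is given by the one with the highest mean level. Probes well above background made up 74.0% to 78.8% of all probes on the R6/2 arrays and 50.1% to 76.2% on the WT arrays, with WT replicate 1 the lowest. WT replicate 1 also had the lowest level of the 8 arrays in 15 of the 62 measured members. In 13 members all 4 R6/2 arrays but at most 3 WT arrays were well above background, and in 12 of these WT replicate 1 was the lowest WT array. R6/2 replicate 4 was on a slide of its own. MSN markers were present in both genotypes, and all 20 of 20 had a negative difference, with a mean list level of 4.48 to 4.79 in R6/2 and 5.11 to 5.37 in WT. Scn4b itself, the gene behind the sort, was at 5.50, 4.73, 5.47 and 4.76 in R6/2 replicates 1 to 4 and at 6.78, 6.17, 5.87 and 6.25 in WT replicates 1 to 4 (difference -1.15, limma adjusted p = 0.555). In the array data fewer MSNs among the sorted cells and less RNA per MSN cannot be told apart, and the part of the sort in the results below was not tested.

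No axon guidance gene passed the test between R6/2 and WT. In limma, with p-values adjusted over all 26919 genes tested, 0 of 62 measured members had an adjusted p under 0.05, as against 0.00371% of all genes, and the lowest adjusted p among members was 0.555. At an unadjusted p under 0.05 there were 8 members, 12.9% of the 62, against 7.14% of all genes. Of these, 6 were lower in R6/2 (Plxnd1, Efnb3, Sema7a, Plxnb2, Epha6 and Plxna3), which is 9.68% of members against 3.45% of all genes. The other 2, Epha3 and Ephb4, were higher in R6/2, which is 3.23% of members against 3.69% of all genes. Without WT replicate 1 the count was 5 of 62 (4 lower and 1 higher), against 7.31% of all genes at that setting. The groups did not overlap in 7 members, 11.3% against 4.73% of all genes: 4 with R6/2 lower (6.45% against 2.57%) and 3 with R6/2 higher (4.84% against 2.16%). Without R6/2 replicate 3, where fewer arrays have to separate, they did not overlap in 12 members, against 8.09% of all genes at that setting.

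**Figure D1:**
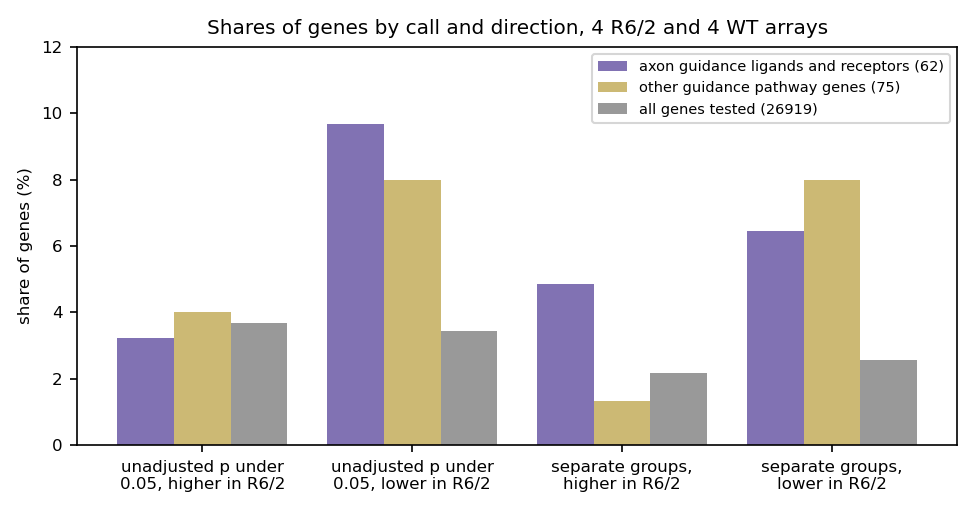
Share of genes (vertical axis, percent) at an unadjusted p under 0.05 in limma or with groups that do not overlap, by direction in R6/2, for the 62 measured axon guidance genes, 75 other guidance pathway genes and all 26919 genes tested. Members stand at 9.68% against 3.45% of all genes for an unadjusted p with R6/2 lower, and at 3.23% against 3.69% with R6/2 higher.

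Positive and negative differences were about evenly divided among the members. Of the 62, 30 had a positive and 32 a negative difference, with a median of -0.03 against +0.03 for all genes tested, and that member median lay between -0.08 and +0.03 over the alternatives. The median was +0.05 over 30 ligands and -0.14 over 32 receptors. By family it was -0.38 for 9 plexins, -0.24 for 13 Eph receptors, -0.08 for 17 semaphorins and -0.06 for 7 ephrins. The 3 netrins and the 3 Slits all had positive differences, with medians of +0.50 and +0.61, and none of these 6 genes had an unadjusted p under 0.05. Without WT replicate 1 the differences were smaller: +0.21 for Ntn3, +0.31 for Ntn5, +0.003 for Ntn1, +0.12 for Slit1, +0.36 for Slit2 and +0.12 for Slit3. Of the 13 members above background on all R6/2 arrays but at most 3 WT arrays, 11 had a positive difference. Picking members this way favours a positive difference, so that this count is no result on direction. The 2 neuropilins both had negative differences, the 4 Robos were split evenly around a median of +0.08, and the 4 measured genes among Unc5 and Dcc had a median of -0.11.

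**Figure D2:**
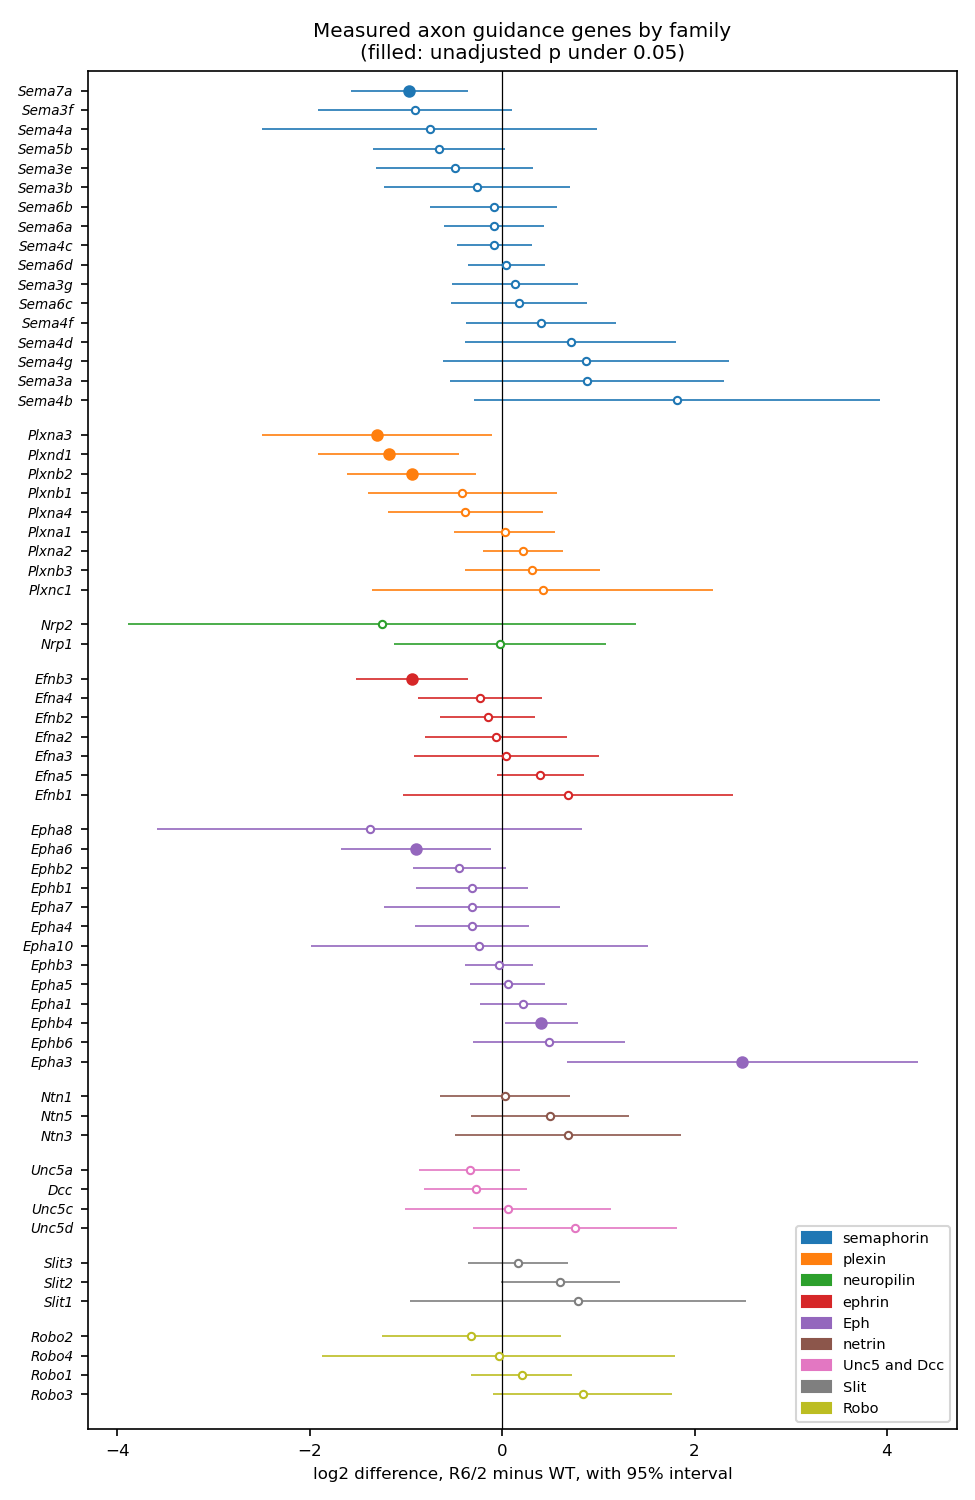
Log2 difference, R6/2 minus WT, of each of the 62 measured members (horizontal axis) with its 95% interval from limma, grouped and coloured by family, filled where the unadjusted p is under 0.05. The filled plexins, Plxna3, Plxnd1 and Plxnb2, lie at -1.30, -1.18 and -0.94, and Epha3 stands far right at +2.50 with an interval from 0.68 to 4.32.

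Plexins are the signalling receptors for semaphorins, and 3 of the 9 measured plexins were among the 6 members lower at an unadjusted p under 0.05. Of all genes, 3.45% were lower at that threshold, and whether plexins differ from other families was not tested. Plxnd1, the receptor of Sema3e, was at 1.34, 2.52, 2.32 and 1.27 in R6/2 replicates 1 to 4, and at 3.12, 3.28, 2.89 and 2.89 in WT replicates 1 to 4. Every R6/2 array lay below every WT array, and the R6/2 arrays fell into a lower and a higher pair, replicates 1 and 4 below replicates 2 and 3. The difference was -1.18 ± 0.32 (standard error, limma, unadjusted p = 0.0056, adjusted p = 0.555). The second Plxnd1 probe, whose start lies 486 bases away, did not show it: its levels were -0.31, -0.49, -0.24 and -0.16 in R6/2 and 0.11, -0.43, -0.32 and -0.26 in WT, a difference of -0.07 (unadjusted p = 0.716). With the mean of both probes the difference was -0.63 (limma, unadjusted p = 0.014). That mean includes the brighter probe, so that it is no separate check of the difference.

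Plxnb2, a receptor for class 4 semaphorins, was at -2.63, -1.997, -2.50 and -1.82 in R6/2 and at -1.56, -0.84, -1.81 and -0.99 in WT. The groups did not overlap, though R6/2 replicate 4 and WT replicate 3 nearly met. Its difference was -0.94 ± 0.29 (standard error, limma, unadjusted p = 0.0119, adjusted p = 0.607). Plxna3, a class 3 semaphorin receptor that pairs with neuropilins, was at -5.42, -3.84, -3.19 and -4.43 in R6/2 and at -3.16, -2.28, -2.39 and -3.83 in WT. Its groups overlapped, and only 3 of 4 arrays of each genotype were well above background, so that its difference of -1.30 (unadjusted p = 0.0360) rests on values near background. With normexp it was -0.52, and the unadjusted p was under 0.05 in 11 of 18 alternatives. The other 6 plexins had differences from -0.41 for Plxnb1 to +0.42 for Plxnc1, the receptor of Sema7a, with unadjusted p-values of 0.257 or more. Plxnc1 was at -0.32 without WT replicate 1, and its second probe at -0.06. Plxna4 was at -0.38, while its second probe was at -1.17 (unadjusted p = 0.038).

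**Figure D3:**
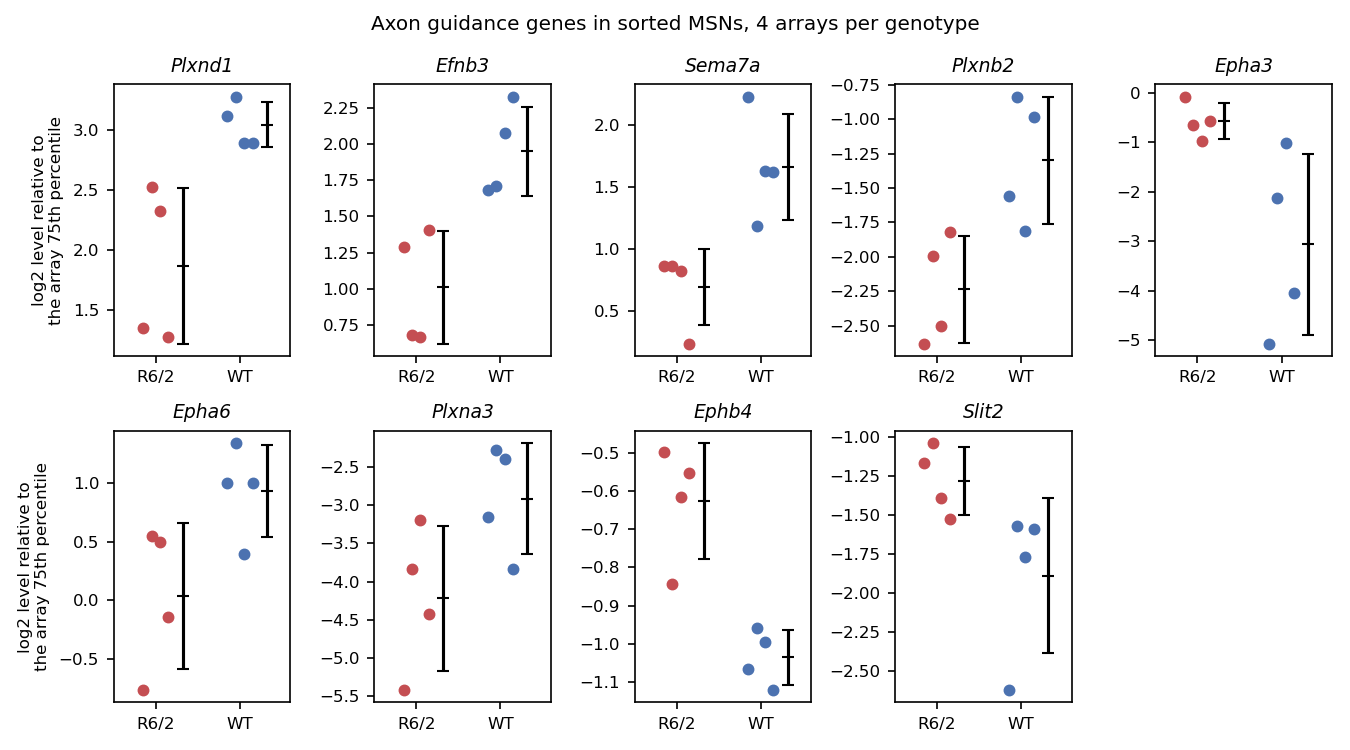
Log2 level relative to the array's 75th percentile (vertical axis, a scale for each gene) in 4 R6/2 arrays (left, red) and 4 WT arrays (right, blue) for the 9 members with an unadjusted p under 0.05 or groups that do not overlap; black marks give the mean and SD. In Plxnd1, Efnb3, Sema7a and Plxnb2 every R6/2 point lies below every WT point, and in Epha3, Ephb4 and Slit2 above.

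The neuropilins had wide intervals. Nrp1, the co-receptor of Sema3a, was well above background on 2 of 4 arrays of each genotype, with a difference of -0.02 and a 95% interval from -1.13 to 1.08. Nrp2, the co-receptor of Sema3f, ranged from -4.43 to 0.70 in R6/2 and from -2.64 to 0.55 in WT. Its difference of -1.25 (limma, unadjusted p = 0.310) had an interval from -3.89 to 1.39, and its second probe was at -1.27.

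Of the 17 measured semaphorins, 1, Sema7a, had an unadjusted p under 0.05 in limma, as did 7.14% of all genes. Sema7a, a lipid-anchored semaphorin that binds plexin C1 and beta1 integrins, was at 0.86, 0.86, 0.82 and 0.24 in R6/2 and at 2.22, 1.18, 1.62 and 1.61 in WT. Every R6/2 array lay below every WT array, and the difference was -0.97 ± 0.27 (standard error, limma, unadjusted p = 0.0061, adjusted p = 0.555). The next smallest p-values belonged to Sema5b (-0.66, unadjusted p = 0.0592, with its other 2 probes at -0.53 and -0.25), a transmembrane semaphorin, and Sema3f (-0.91, unadjusted p = 0.0729), a secreted one. Sema3f was at 2.51 in WT replicate 1 and at 0.52 to 1.10 on the other WT arrays, and its difference was -0.49 without WT replicate 1. Sema3e, the ligand of Plxnd1, had a difference of -0.49 with an interval from -1.31 to 0.32. Sema4b had the largest positive difference of the family, +1.82 (unadjusted p = 0.0832), which was +0.93 without WT replicate 1, where its level was -3.69 against -0.59 to 0.11 on the other WT arrays. Sema4d, a ligand of plexin B1 that oligodendrocytes also make, had a difference of +0.71 (unadjusted p = 0.175), with 4 R6/2 and 2 WT arrays well above background, while the 9 tested of 10 oligodendrocyte markers had a mean level of -1.47 to -0.40 in R6/2 and -1.04 to 1.87 in WT; their part in the result was not tested.

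Several semaphorins had narrow intervals, which bound the difference in the signal of the brightest probe and not a change in the gene. Sema4c, a ligand of plexin B2, was at 8.68, 8.40, 8.36 and 8.56 in R6/2 and at 8.47, 8.49, 8.74 and 8.62 in WT, a difference of -0.08 with an interval from -0.47 to 0.31. Sema6d, a transmembrane ligand of class A plexins, had +0.05 with an interval from -0.35 to 0.44, although its second probe was at +0.83. For Sema6a the interval ran from -0.60 to 0.44.

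Of the 7 measured ephrins, by their brightest probes, 1, Efnb3, had an unadjusted p under 0.05 in limma, as did 7.14% of all genes. Efnb3, a transmembrane ephrin that binds EphB receptors and Epha4 and signals back into its own cell, was at 1.29, 0.68, 0.67 and 1.40 in R6/2 and at 1.68, 1.71, 2.08 and 2.33 in WT. The groups did not overlap, with R6/2 replicates 2 and 3 the lowest. The difference was -0.94 ± 0.26 (standard error, limma, unadjusted p = 0.0058, adjusted p = 0.555). The other 6 measured ephrins ran from -0.23 for Efna4 to +0.68 for Efnb1. Efna5, a lipid-anchored ephrin of the EphA system, had +0.40 with an interval from -0.05 to 0.85, and Efnb2, with -0.15, had an interval from -0.64 to 0.34. Efna3 was at +0.05 by its brighter probe and at -1.19 (unadjusted p = 0.026) by its other.

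Eph receptors included members on both sides. Epha3, a receptor for ephrin-A ligands, was at -0.08, -0.64, -0.97 and -0.56 in R6/2 and at -5.06, -2.13, -1.01 and -4.04 in WT, with 4 and 3 arrays well above background. Every R6/2 array lay above every WT array, but WT replicate 3 lay only just below R6/2 replicate 3, and the WT arrays spread far more than the R6/2 arrays. The difference was +2.50 ± 0.80 (standard error, limma, unadjusted p = 0.0129, adjusted p = 0.607), and +1.83 without WT replicate 1. With normexp background correction, whose offset lessens differences of dim probes, it was +1.33.

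Epha6, another EphA receptor, was at -0.76, 0.55, 0.50 and -0.14 in R6/2 and at 0.998, 1.34, 0.40 and 1.002 in WT. The groups overlapped through WT replicate 3, and the difference was -0.90 (limma, unadjusted p = 0.0287), with an unadjusted p under 0.05 in 13 of 19 alternatives. Ephb4, best known as the ephrin-B2 receptor of veins, was at -0.50, -0.84, -0.61 and -0.55 in R6/2 and at -1.07, -0.96, -0.995 and -1.12 in WT, a difference of +0.41 (unadjusted p = 0.0366) with no overlap. Its unadjusted p was under 0.05 in 8 of 19 alternatives, and with the mean of its probes it was 0.146. Its other probe was at +0.17, and the 8 tested of 10 endothelial and mural markers had a mean level of -3.003 to -2.21 in R6/2 and -3.20 to -2.01 in WT.

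The remaining 10 measured Eph receptors had unadjusted p-values of 0.068 or more. Ephb2 (-0.44), Ephb1 (-0.32) and Epha4 (-0.31), all able to bind ephrin-B ligands, had negative differences with intervals that included 0. Ephb3 was at 8.74, 8.56, 8.58 and 8.66 in R6/2 and at 8.64, 8.62, 8.75 and 8.69 in WT, a difference of -0.04 with an interval from -0.39 to 0.32. Epha5 had +0.06 (interval from -0.33 to 0.45) by its brightest probe, and +0.60 and -0.85 by its other 2.

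Among netrin, Slit and Robo genes, no unadjusted p was under 0.05, and only for Slit2 did the groups not overlap. Slit2, a secreted ligand of Robo1 and Robo2, was at -1.17, -1.04, -1.39 and -1.52 in R6/2 and at -2.62, -1.57, -1.77 and -1.59 in WT. The groups did not overlap, yet R6/2 replicate 4 and WT replicate 2 were close, and the difference of +0.61 (limma, unadjusted p = 0.0546) was +0.36 without WT replicate 1. Slit1 (+0.79) and Slit3 (+0.17) had wide and narrow intervals around it, from -0.96 to 2.53 and from -0.36 to 0.69. The receptors Robo1 and Robo2 were at +0.20 and -0.32, with unadjusted p-values of 0.402 and 0.451, and at +0.06 and -0.03 without WT replicate 1. The other Robo1 probe was at +0.72. The other Robo2 probes were at +0.41 and -0.37, so that the direction for Robo2 depends on the probe. Robo3, a receptor known for controlling midline crossing, was at +0.84 (unadjusted p = 0.0719) and +1.52 by its 2 probes, both dim, with 3 and 2 WT arrays well above background.

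Ntn1, the netrin that attracts axons through Dcc, had a difference of +0.03 with an interval from -0.65 to 0.71. Ntn5 and Ntn3 were at +0.50 and +0.68, each with 3 WT arrays well above background. Unc5d had +0.76 (limma, unadjusted p = 0.141), Unc5a -0.34 and Unc5c +0.06, which was -0.42 without WT replicate 1. The brightest Dcc probe, at -0.28, is placed by the array's annotation on chromosome 7, whereas the RefSeq gene lies on chromosome 18. The 2 Dcc probes placed on chromosome 18 were at -0.47 and +0.01 (unadjusted p = 0.298 and 0.984).

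The same conflict arose for Plxna2, a receptor of class 3 and class 6 semaphorins, whose brighter probe is placed on chromosome 14 and whose gene lies on chromosome 1. By the chromosome 14 probe its levels were 5.87, 5.79, 5.50 and 5.85 in R6/2 and 5.45, 5.37, 5.79 and 5.52 in WT, a difference of +0.22. By the chromosome 1 probe they were 3.44, 2.96, 2.96 and 2.60 in R6/2 and 3.79, 3.60, 3.18 and 3.42 in WT, a difference of -0.51 (limma, unadjusted p = 0.0621 when this probe stood for the gene, an alternative chosen after seeing the data). The direction for Plxna2 therefore depends on the probe. These were the only 2 of the 99 probes placed on a chromosome other than that of their gene.

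Disagreement between probes was common among the members. Of 21 genes with at least 2 measured probes, 9 had probes of opposite sign, and the median range between probes of a gene was 0.52 on the log2 scale. For Plxna2 the opposite sign rests on the probe placed off its gene's chromosome. The share over all genes is not given here, and probes with differences near 0 can take either sign. The range was over 1 in Epha5 (1.46), Sema3a (1.33), Efna3 (1.24), Plxnd1 (1.10) and Unc5c (1.06). Sema3a, the ligand of neuropilin 1, was at +0.88 and -0.45 by its 2 probes, and by the first of these WT replicate 2 was at -2.13. Efnb3, Sema7a, Plxnb2 and Epha3 have 1 probe each, so that no second probe tests their differences.

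**Figure D4:**
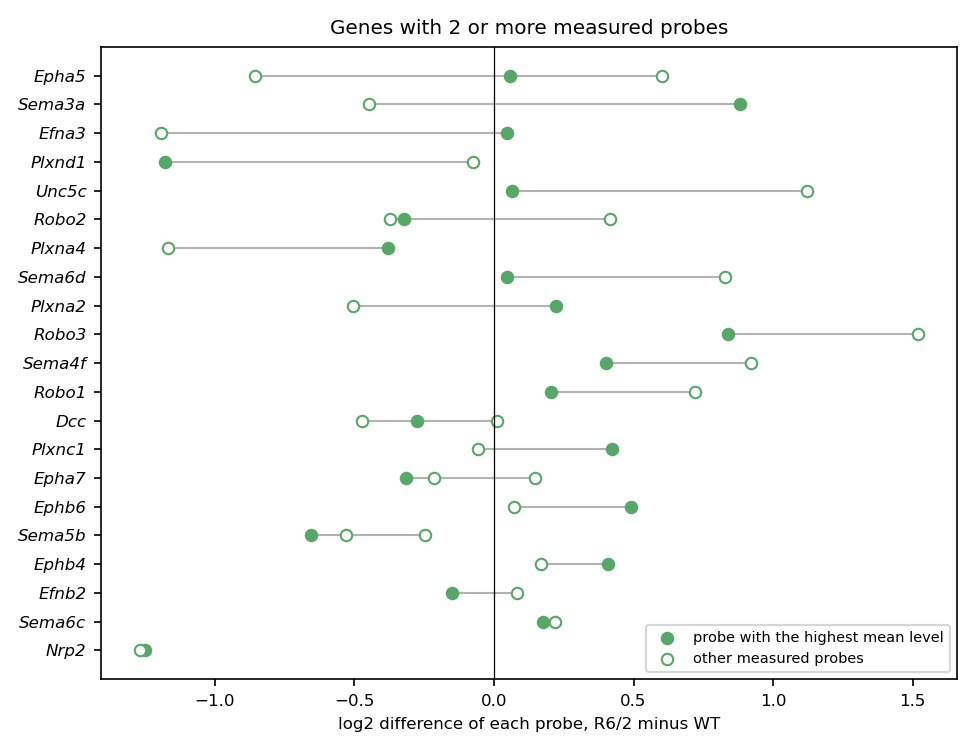
Log2 difference, R6/2 minus WT (horizontal axis), of every measured probe of the 21 members with at least 2 measured probes, the filled point being the probe with the highest mean level. The widest range is that of Epha5, from -0.85 to +0.60, and Plxnd1 has its 2 probes at -1.18 and -0.07.

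The 7 members not measured were Efna1, Epha2, Ntn4, Sema3c, Sema3d, Sema5a and Unc5b. Efna1, Ntn4 and Sema3d were well above background on 0 of 8 arrays. Unc5b, a netrin receptor, was well above background on 0 of 4 R6/2 arrays and 3 of 4 WT arrays, with levels of -6.87, -7.20, -5.40 and -6.90 in R6/2 and -4.76, -1.77, -3.58 and -2.76 in WT. With the R6/2 level set, per array, at the dimmest signal marked as above background or at the probe's own where higher, the mean was 4.30-fold lower in R6/2. This is a rough figure without an interval and not a lower limit. Its WT mean includes WT replicate 1, whose level lay below the dimmest marked signal of that array (-2.78). Limma without the filter on dim probes gave a difference of -3.37 (unadjusted p = 0.0008, adjusted p = 0.569). At that setting 9 of 69 members had an unadjusted p under 0.05, 1 higher and 8 lower in R6/2, against 5.9% of all genes.

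Per the authors' deposited table, 9 of the 88 measured member probes (10.2%) had an unadjusted p under 0.05 in the authors' t-test, against 6.76% of all measured probes, and the lowest corrected p among them was 0.706, for Ephb4. The authors' deposited table lists an absolute fold of 2.27 for the brighter Plxnd1 probe and of 1.92 for Efnb3.

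The stretch before the transcription start was read for the members with the smallest p-values that RefSeq's promoter table (GRCm38.p6) holds. Of the 69 members, 59 matched, with 75 starts. The 250 bases before the first listed start are printed for Plxnd1, Sema7a, Plxnb2 and Epha3, with capitals marking the GC box GGGCGG on either strand. The cAMP response element TGACGTCA and the TATA box TATAAA were searched on both strands too and had no match in these 4.
Plxnd1, chr6:115995006-115995255, minus strand: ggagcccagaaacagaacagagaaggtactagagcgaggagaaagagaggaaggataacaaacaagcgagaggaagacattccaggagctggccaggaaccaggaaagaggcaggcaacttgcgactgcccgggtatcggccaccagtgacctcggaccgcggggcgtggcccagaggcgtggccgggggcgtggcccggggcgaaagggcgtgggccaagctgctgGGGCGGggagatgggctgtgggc
Sema7a, chr9:57939862-57940111, plus strand: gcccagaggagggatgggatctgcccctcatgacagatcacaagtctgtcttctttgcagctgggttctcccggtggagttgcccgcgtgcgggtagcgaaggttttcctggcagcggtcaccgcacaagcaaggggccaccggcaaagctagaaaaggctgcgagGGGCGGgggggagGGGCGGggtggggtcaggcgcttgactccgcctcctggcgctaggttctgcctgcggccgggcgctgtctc
Plxnb2, chr15:89180789-89181038, minus strand: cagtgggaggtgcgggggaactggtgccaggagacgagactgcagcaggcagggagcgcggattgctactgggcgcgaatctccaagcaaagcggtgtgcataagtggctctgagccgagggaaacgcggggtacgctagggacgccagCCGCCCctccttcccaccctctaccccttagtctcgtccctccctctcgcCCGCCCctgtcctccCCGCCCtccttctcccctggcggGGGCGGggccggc
Epha3, chr16:63864176-63864425, minus strand: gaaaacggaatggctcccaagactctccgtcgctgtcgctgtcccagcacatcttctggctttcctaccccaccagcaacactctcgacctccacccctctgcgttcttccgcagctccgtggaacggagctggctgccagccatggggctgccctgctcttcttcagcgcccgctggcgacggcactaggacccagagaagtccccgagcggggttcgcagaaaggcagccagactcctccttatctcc
The GC box occurred 1 time before Plxnd1, 2 times before Sema7a, 4 times before Plxnb2 and 0 times before Epha3. Of the other members whose groups did not overlap, Ephb4 had 4 GC boxes, and Slit2 had 3 GC boxes and 1 TATA box. Over all members 70.7% of starts had it, against 32.7% of all 32851 starts in the table. A cAMP response element was in 1 member start, that of Epha2 (1.33% against 1.55%), and a TATA box in 2, those of Efnb2 and Slit2 (2.67% against 12.4%). Genes with several starts count more than once in these shares, and the GC content of the windows was not matched between members and all starts. The matches describe the letters in this window and not binding by any factor.

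Genes that work downstream of these receptors, or beside them, were read from a list of 81 genes, of which 75 were tested. In limma 0 passed over all genes tested, and 9 had an unadjusted p under 0.05 (12% against 7.14% of all genes), 6 lower (8% against 3.45%) and 3 higher (4% against 3.69%) in R6/2. Among exchange factors and GTPase regulators, Farp2, which acts downstream of Sema3a and plexin A receptors, was at -3.54, -2.42, -1.67 and -3.50 in R6/2 and at -0.08, -0.94, -1.05 and -0.13 in WT. Every R6/2 array lay below every WT array, and the difference was -2.23 (adjusted p = 0.417), but its other probe was at +1.05. Ngef (ephexin 1), an exchange factor that acts downstream of Epha4, was at 4.65, 4.62, 4.85 and 4.41 in R6/2 and at 5.03, 5.29, 5.10 and 5.39 in WT, a difference of -0.57 with no overlap and 1 probe. Chn1, the Rac GTPase-activating protein downstream of Epha4, had -0.47 and the exchange factor Kalrn -0.51, both with no overlap, and other probes at -0.995 for Chn1 and up to +0.46 for Kalrn.

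Of the receptors and adhesion partners in that list, Neo1, a netrin and RGM receptor related to Dcc, had -0.84 (limma, unadjusted p = 0.018, adjusted p = 0.634). The receptor phosphatase Ptprs had -0.59, with its other probe at -0.09. The genes with positive differences included Enah (+0.62, with its other probe at -0.24), an actin regulator downstream of netrin and Robo signals, and the GTPase-activating protein Arhgap39 (+0.81), which binds Robo. The median difference of the 75 genes was +0.01.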

How the data were processed

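The deposited scanner files give, per the file headers, processed intensity per spot (Agilent software, Feature Extraction 10.7.3.1), background-subtracted and detrended, with no scaling between arrays. The authors' deposited table also gives log2 values (log2 intensity over the array's 75th percentile, as the values show), p-values of an unpaired t-test with Benjamini-Hochberg correction, and an absolute fold. Here the processed intensity was taken to log2, flagged outlier spots were dropped, replicate spots averaged per probe, and the array's 75th percentile over non-control probes was subtracted. For R6/2 replicate 3, 1 unreadable line was skipped.

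Of 55681 probes, 41385 passed the background mark on 4 or more arrays. The brightest probe represented a gene, giving 26919 genes. Groups were compared with limma 3.58.1 on R 4.3.3 (two-sided, Benjamini-Hochberg over all genes, threshold 0.05). The fit was also tried on simulated data with independent noise, which holds no array or slide effects. The 4 arrays per group limit the precision. Named are members with an unadjusted p under 0.05 or separate groups, the smallest p of each family, and others where their family is described. Tried were normexp (offset 50), quantile normalization, the authors' values, other filters and probe rules, the methods' t-test, replicate and slide blocks, and each array left out. Member names and gene lists were chosen with earlier results of these data known. 1 gene of the pathway list is not reported here.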

Additional observations from a re-analysis of the deposited data

Results flagged for a closer look

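In 6 of the 124 groups of 4 arrays (62 members, 2 genotypes), 1 array stood apart from the other 3 by a gap past Dixon's 95% critical value for 4 samples, and chance gives about 1 in 20. Sema7a was at 0.24 in R6/2 replicate 4, against 0.82 to 0.86 on the other R6/2 arrays. In the same array Plxna1 was at 0.88 (others 0.07 to 0.18), Plxnb1 at -3.21 (others -4.25 to -4.15) and Plxnb3 at -1.85 (others -3.07 to -2.92). R6/2 replicate 4 is the array on a slide of its own, so that slide and array cannot be told apart. Sema4a was at -4.58 in R6/2 replicate 2 (others -1.58 to -1.12), and Unc5c at -2.85 in WT replicate 1 (others -0.96 to -0.84).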

How the results depend on the processing

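No member passed the adjusted threshold under any of the 19 alternatives. The 13 members named by rule, most of them for their p or separation in these data, kept their direction in all 242 alternative values. Several alternatives, such as the methods' t-test and the other filters, can reuse the same probe and levels. Those cannot change a direction, so that the count overstates what was checked. The unadjusted p was under 0.05 in only 8 of 19 for Ephb4, 13 of 19 for Epha6 and 11 of 18 for Plxna3. Of 919 values of the other 49 members, 916 moved by less than the SD between arrays. Of all genes tested, 1 passed. This count was 8 with normexp, 8 after quantile normalization, 6 where probes had to pass the background mark on all 8 arrays, 5 with the mean of a gene's probes, 0 with the methods' t-test, 0 with the slide as a block (the same fit as leaving out R6/2 replicate 4, which has a slide of its own), and 0 to 3 with 1 array left out; the cause was not tested. With the replicate number as a block it was 0, and 8 of 62 members had an unadjusted p under 0.05, against 6.8% of all genes at that setting. But same-numbered arrays did not deviate together (correlations from -0.05 to 0.03, 1 of 4 R6/2 arrays closest to its own number), so that they share only a number. Members at an unadjusted p under 0.05 numbered 5 to 10 with 1 array left out, against 5.91% to 7.5% of all genes, and members with separate groups 7 to 12, against 7.19% to 8.8%. Other pathway genes at an unadjusted p under 0.05 numbered 9, against 7.14% of all genes. With every probe counted on its own there were 14 probes, against 7.02% of all probes, a count in another unit. With 1 array left out there were 6 to 11 genes, against 5.91% to 7.5% of all genes. With members taken only from probes on their gene's chromosome, an alternative chosen after seeing the data, 8 of 62 members had an unadjusted p under 0.05. The share of all genes at that setting was 7.14%. Members dim on WT replicate 1 limit what the array signal can show.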
